A study of Mus musculus with 18 samples.

Results

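The proteins of the cytosolic ribosome were followed through CD4 T cells of 3 mouse tissues by the intensity of their transcripts on Affymetrix M430v2 arrays. Members were taken by symbol: every gene whose name is Rpl or Rps followed by a digit, or Rplp0, Rplp2 or Rpsa, and whose probe set carried that symbol and no other. A gene with several such probe sets was represented by its brightest, by mean over the 18 arrays. That gave 50 of 18193 genes, 47 of which passed a filter on dim genes that kept 12821. Rps16, Rps4l and Rpl3l did not pass it, and Rplp1, Rpl3, Rpl5 and Rpl10 had no such probe set, so they are not described here. The rule also takes in genes that are not core ribosomal proteins: the paralogues Rpl22l1, Rpl39l, Rpl3l, Rpl7l1, Rps27l and Rps4l, and Rps19bp1, which encodes a binding partner of the small subunit protein Rps19. Of the 47 tested genes 42 were core members, 20 of the small and 22 of the large subunit.

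The series set regulatory T cells, sorted as CD25+ and called Treg here, beside conventional CD25- cells, called Tconv, in abdominal fat, thymus and lymph node, with 3 arrays in each of the 6 groups. The sort took CD4+ cells and left out those with B220, CD11b or CD8a. Fat Treg and Tconv came from the epididymal fat of male C57BL/6 mice of 25 to 35 weeks, with TCRb+ added to the gate and 8 to 10 mice pooled per array. Thymus Treg and Tconv were taken at 4 to 6 weeks from BDC2.5/NOD mice, which carry a T cell receptor transgene on the NOD background, after magnetic depletion of CD8a cells, with 3 to 6 mice per array. Lymph node Treg and Tconv came from cervical, inguinal and mesenteric nodes of C57BL/6 mice of 32 to 36 weeks, also 3 to 6 per array. Each array is a pool, so a p-value measures the spread between pools. Thymus differs from lymph node in strain, age and tissue at once, and these cannot be told apart. Array medians were 76.9 to 82.2 on the 6 fat arrays and 57.9 to 63.0 on the other 12. Tissues were therefore compared after quantile normalization of all 18 arrays, and Treg with Tconv of one tissue on the values as deposited. Foxp3, the defining transcription factor of Treg, was at 560 to 1644 on the Treg arrays and at 22.6 to 138 on the Tconv arrays, and Cd3e and Cd4 were above the dim cutoff on every array.

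The cytosolic ribosome translates messenger RNA. Its small subunit decodes the message and its large subunit forms the peptide bonds, and both are built from ribosomal RNA and a fixed set of proteins made in matched amounts. Transcripts of these proteins, and of many elongation factors, begin at a C followed by a run of pyrimidines, the TOP motif, through which mTORC1 and Larp1 control their translation. T cells that leave quiescence raise ribosome production, and Treg depend on mTORC1 activity for their function. An array reads transcript abundance, which does not measure that control of translation.

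The stretches printed next surround the annotated start sites of genes whose differences are described further on, and show which of them have a pyrimidine run there. They run 5′ to 3′ on the transcribed strand and are RefSeq sequence of build GRCm38.p6. Capitals mark the longest unbroken run of C and T within 30 bases of the start, where it held at least 8 bases and lies inside the stretch. Where runs were equally long, only the first is marked. Rps18 lies at chr17:33955646-33955695 on the minus strand, Rps9 at chr7:3704011-3704060 on the plus strand, and Rps6, the small subunit protein phosphorylated downstream of mTORC1, at chr4:86857348-86857397 on the minus strand. Rpl35 lies at chr2:39005112-39005161 on the minus strand and Rpl7a at chr2:26910777-26910826 on the plus strand. Rps7 lies at chr12:28635934-28635983 on the minus strand, Rpl37 at chr15:5116583-5116632 on the plus strand and Rpl37a at chr1:72711230-72711279 on the plus strand. The paralogues are Rps27l at chr9:66946056-66946105 on the plus strand, where it has a second annotated start that is not shown, and Rpl7l1 at chr17:46782637-46782686 on the minus strand.
Rps18: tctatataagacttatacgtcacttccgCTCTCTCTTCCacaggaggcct
Rps9: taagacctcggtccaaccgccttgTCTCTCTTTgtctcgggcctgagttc
Rps6: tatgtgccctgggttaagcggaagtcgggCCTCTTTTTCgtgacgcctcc
Rpl35: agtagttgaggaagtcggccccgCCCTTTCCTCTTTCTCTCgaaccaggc
Rpl7a: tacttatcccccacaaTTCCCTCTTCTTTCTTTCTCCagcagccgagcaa
Rps7: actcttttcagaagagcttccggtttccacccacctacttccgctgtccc
Rpl37: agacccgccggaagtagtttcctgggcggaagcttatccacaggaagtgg
Rpl37a: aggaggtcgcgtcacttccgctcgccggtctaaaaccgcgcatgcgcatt
Rps27l: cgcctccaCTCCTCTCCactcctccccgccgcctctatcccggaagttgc
Rpl7l1: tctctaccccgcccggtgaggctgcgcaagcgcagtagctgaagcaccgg

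The run measured 21 bases at Rpl7a, 18 at Rpl35, 11 at Rps18, 10 at Rps6 and 9 at both Rps9 and Rps27l. Rps27l has another run of 9 bases nearer the start, left in lower case. The longest run had 6 bases at Rpl37 and 5 at Rpl7l1, and is not capitalised. At Rps7 and Rpl37a the longest run, of 9 and 8 bases, starts after the stretch shown. The Rps7 stretch itself also holds a run of 8 bases near its 5′ end, left in lower case as it is not the longest. Among the core members, 38 genes matched the promoter table by symbol, with 44 start sites, and 52.3% of these windows held a run of 8 or more within 30 bases of the start, against 23.1% of all 32851 promoters. Over the whole window, 250 bases before to 50 after the start and both strands, CCGGAA, the core of the ETS factor site, stood in 56.8% of the core members' windows and 14.9% of all. CTTTCC stood in 45.5% against 26.6%, and CACGTG, the E-box that Myc binds, in 11.4% against 7.15%. A match describes these letters and is not a binding site.

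Within the tissues, most ribosomal protein genes lay slightly to one side between Treg and Tconv, and the number that passed the test depended on whether arrays with the same replicate number were treated as pairs. Without pairs 0 passed in any tissue. With the pair as a block, limma called 5 in fat, beside 20.7% of all genes, 3 in thymus, beside 11.9%, and 0 in lymph node, beside 8.02%. In fat 38 of the 47 had a lower mean in Treg than in Tconv, and in lymph node 38, while in thymus 42 had a higher mean in Treg. Of all genes 51.1% were above 0 in fat, 45.2% in lymph node and 45.7% in thymus. The median log2 difference over the members was -0.16 in fat, -0.12 in lymph node and 0.15 in thymus, on values as deposited, where the median over all 12821 genes was 0.01, -0.02 and -0.02. Without pairs, with limma and a Benjamini-Hochberg adjusted p under 0.05 over all genes, 0 of 47 members passed in fat, where 11.5% of all genes did (6.32% higher, 5.19% lower). In lymph node 0 passed, with 4.32% of all genes (3.21% higher, 1.11% lower), and in thymus 0, with 4.98% (3.21% higher, 1.77% lower). At an unadjusted limma p under 0.05 there were 1 higher and 4 lower in fat, 0 in lymph node, and 4 higher and 0 lower in thymus. Of all genes 20.7%, 11.3% and 15% passed that threshold in these tissues, in either direction. In fat 2 members had every Treg array above every Tconv array and 7 had them all below, against 12.2% and 13% of all genes. In lymph node these counts were 0 and 1 (9.91% and 6.63%), and in thymus 6 and 1 (9.02% and 10.3%).

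These small shifts ran through both subunits. In fat Treg against fat Tconv 17 of 20 small subunit and 20 of 22 large subunit genes were on the lower side, with medians of -0.22 and -0.18. In thymus 16 of 20 small subunit and 21 of 22 large subunit genes were on the higher side, with medians of 0.08 and 0.16. The shifts also rested on few arrays. Without fat Tconv replicate 2 the median in fat was -0.03, and without fat Tconv replicate 1 it was -0.35. Without lymph node Treg replicate 3 the median in lymph node was 0.02, and without thymus Treg replicate 1 that in thymus was 0.04.

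**Figure D1:**
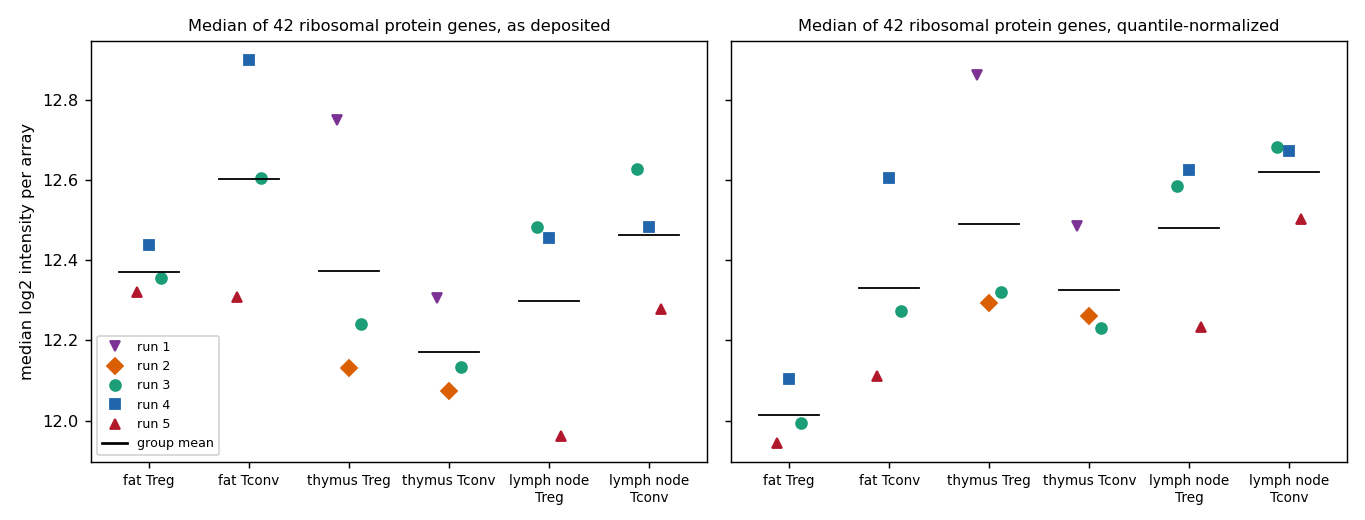
Median log2 intensity of the 42 core ribosomal protein genes on each of the 18 arrays, as deposited on the left and quantile-normalized on the right, by group, with the group mean as a line and the run of close scan-file numbers as colour and shape. After quantile normalization the 3 fat Treg arrays lie lowest, at 11.95 to 12.10, and lymph node Treg replicate 3, at 12.23, lies below the other 2 arrays of its group.

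The plot of medians by array shows the pools that lie off their group. The labels number the scan files, and the numbers form 5 runs: fat and lymph node arrays share runs 3, 4 and 5, and thymus arrays fall in runs 1, 2 and 3. In values as deposited, lymph node Treg replicate 3 of run 5 had 3 of the 42 core genes above the mean of its group, and a median deviation of -0.20. Lymph node Treg replicate 1 had 40 of 42 above it, and fat Tconv replicate 2 had 38 of 42. All 4 arrays of run 5 had a median deviation below 0. Within run 5 the median difference between Treg and Tconv was 0.07 in fat and -0.32 in lymph node. Within run 4 it was -0.49 in fat and -0.01 in lymph node, and within run 3 it was -0.13 and -0.08. In thymus it was 0.37 within run 1, 0.06 within run 2 and 0.04 within run 3.

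Pools of one group differed from each other in many ribosomal protein genes at once. Of the variance within groups, the first principal component held 42.4% for the 42 core members and 26.7% for all tested genes, after quantile normalization. The median correlation of 2 members over the 18 arrays, as deviations from group means, was 0.40 over 861 pairs, which share arrays and overall intensity. The groups accounted for a median of 47.9% of a core member's variance, against 60.9% for all genes. The residual standard deviation of a core member had a median of 0.25 on the log2 scale, against 0.22.

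Treg and Tconv arrays with the same replicate number deviated together, which is why the pair was also used as a block. Within a tissue each pair also lies in a single run, so a paired pool and a shared run cannot be told apart. In that fit the 4 called lower in fat Treg were small subunit proteins: Rps25 (-0.59, limma adjusted p = 0.0116), Rps9 (-0.49, 0.0109), Rps29 (-0.48, 0.013) and Rps20 (-0.37, 0.0348). Of the other 3 probe sets of Rps20 only 1 was lower in fat Treg, with a range of -0.26 to 0.67. The member called higher in fat Treg was the paralogue Rps27l, and the 3 called higher in thymus Treg were Rps27l, Rpl37 (0.43, 0.0467) and Rps19bp1 (0.42, 0.0419). Other lists also held called genes, in the fit without the block. In fat 6.32% of all genes were called higher and 5.19% lower, in lymph node 3.21% and 1.11%, and in thymus 3.21% and 1.77%. Between fat Treg and fat Tconv 3 of 12 cell division genes were called lower. The 12 summed, quantile-normalized, to 4171 to 4991 in fat Treg and 5505 to 9086 in fat Tconv. Immediate early and stress genes were called higher for 5 of 12 and lower for 1 in fat Treg against fat Tconv. Naive T cell genes were called lower for 5 of 8 there, and of 6 NK and cytotoxic genes 1 was called higher and 3 lower. Also called lower there were 1 of 6 B cell and 1 of 8 immature thymocyte genes. In lymph node Treg against lymph node Tconv 2 of 8 naive T cell and 2 of 8 immature thymocyte genes were called lower, 2 of 6 B cell and 1 of 12 immediate early and stress genes higher, and of 6 NK and cytotoxic genes 2 higher and 1 lower. In thymus Treg against thymus Tconv 3 of the 6 NK and cytotoxic genes were called higher and 1 lower. The 7 of that list with a probe set summed to 2478 to 8644 in Treg and 1288 to 2058 in Tconv. There 3 of 12 immediate early and stress genes were called higher and 1 lower, 2 of 8 immature thymocyte genes lower, 1 of 6 B cell genes higher, and Cd28 lower (-0.71, limma adjusted p = 0.00989). Their part in the ribosomal protein values was not tested.

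**Figure D2:**
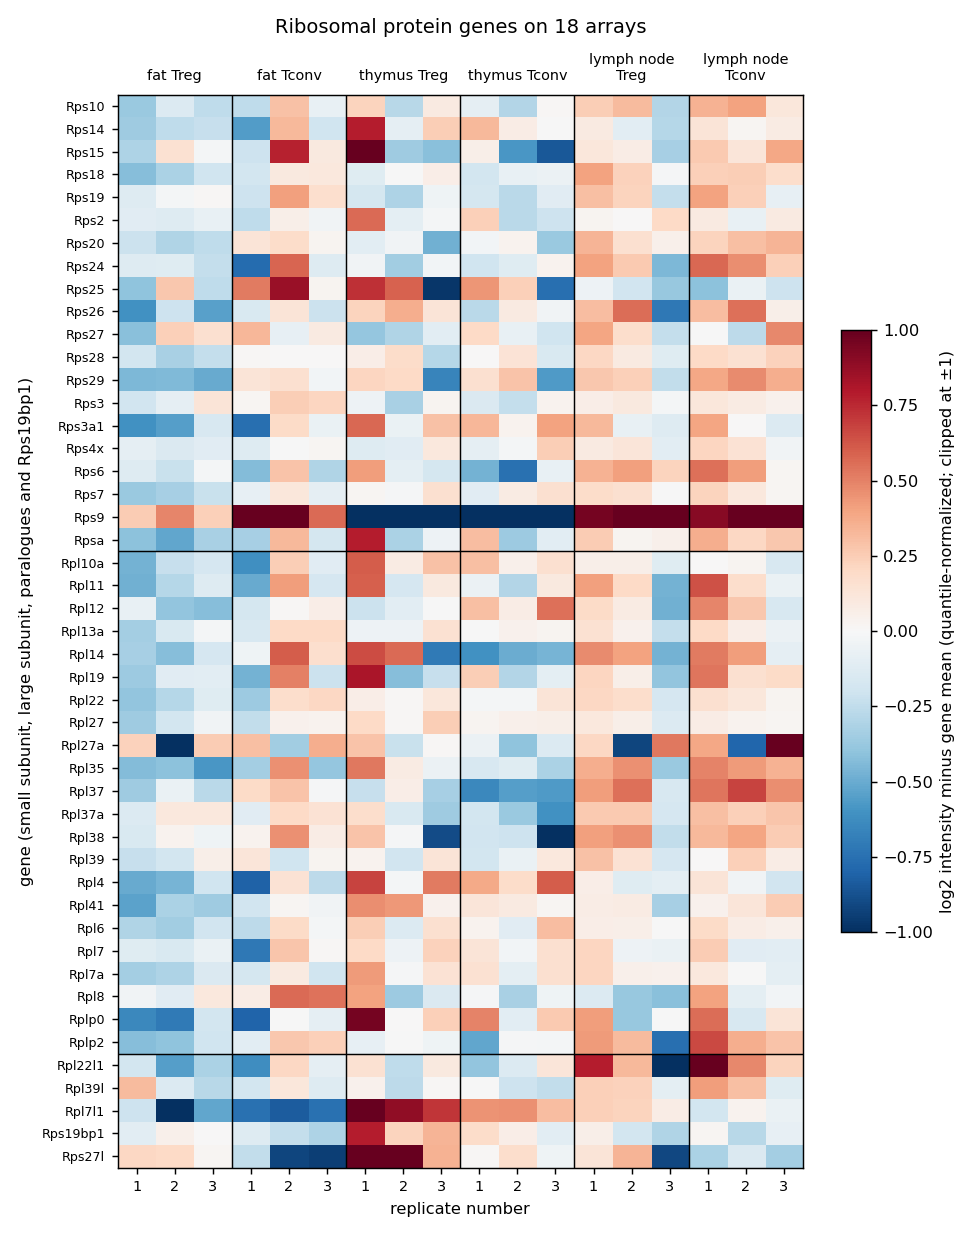
Log2 intensity after quantile normalization of each tested ribosomal protein gene on each of the 18 arrays, as the difference from the gene's own mean over the arrays, with genes in rows and arrays in columns by group. The 3 fat Treg columns are on the low side for most core genes, and Rps9 is low on all 6 thymus arrays.

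Rps29, whose protein binds zinc in the small subunit, had 6073, 5924 and 5823 in fat Treg and 8196, 8839 and 7827 in fat Tconv, as deposited. In lymph node it had 7150, 6825 and 4507 in Treg and 7911, 7962 and 7202 in Tconv. Both pairs of groups were apart, with Treg below Tconv, and the log2 differences were -0.48 in fat and -0.35 in lymph node, without the block not called in either. Rps25, which takes part in initiation at internal entry sites, had 747, 1181 and 847 in fat Treg and 1304, 1842 and 1068 in fat Tconv, groups that overlap. In lymph node its difference was 0.05.

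Rps27l, which encodes a paralogue of the small subunit protein Rps27 and is known as a target of p53, had the largest difference between Treg and Tconv of any member in fat and in thymus. As deposited it had intensities of 1361, 1273 and 1169 in fat Treg and 852, 624 and 613 in fat Tconv. In thymus it had 2150, 2022 and 1209 in Treg and 894, 1058 and 929 in Tconv. In both tissues every Treg array lay above every Tconv array. In lymph node the groups overlapped, with 1046, 1187 and 446 in Treg and 783, 794 and 643 in Tconv, the low Treg value being that of replicate 3. The log2 difference was 0.88 ± 0.29 (SE, 3 arrays a group) in fat, with a limma adjusted p of 0.0591. It was 0.86 ± 0.29 in thymus, with an adjusted p of 0.113, and 0.16 ± 0.29 in lymph node, with an adjusted p of 0.961. With the replicate pair as a block the adjusted p was 0.00865 in fat and 0.0172 in thymus. The other 2 probe sets of the gene gave 0.91 and 1.02 in fat and 0.96 and 0.99 in thymus. The difference of the Treg effect between fat and lymph node was 0.72 ± 0.40, with an adjusted p of 0.455, and that between thymus and lymph node was 0.75 ± 0.40, with an adjusted p of 1.

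Rps27 itself, the partner of Rps27l, had 134, 196 and 193 in fat Treg and 204, 169 and 188 in fat Tconv. These groups overlapped, and its log2 difference was -0.12 ± 0.21 in fat and -0.24 ± 0.21 in thymus. Its probe set was dim beside those of most members, and levels of different probe sets are not compared. Rpl22l1, the paralogue of the large subunit protein Rpl22, ranged widely between pools. It had 3949, 2863 and 1037 in lymph node Treg and 5221, 3087 and 2435 in lymph node Tconv, overlapping groups with a log2 difference of -0.58 ± 0.39. Rpl22, which is needed for the development of alpha-beta T cells in mice, had differences of -0.25 ± 0.18 in fat, -0.09 ± 0.18 in lymph node and 0.10 ± 0.18 in thymus.

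**Figure D3:**
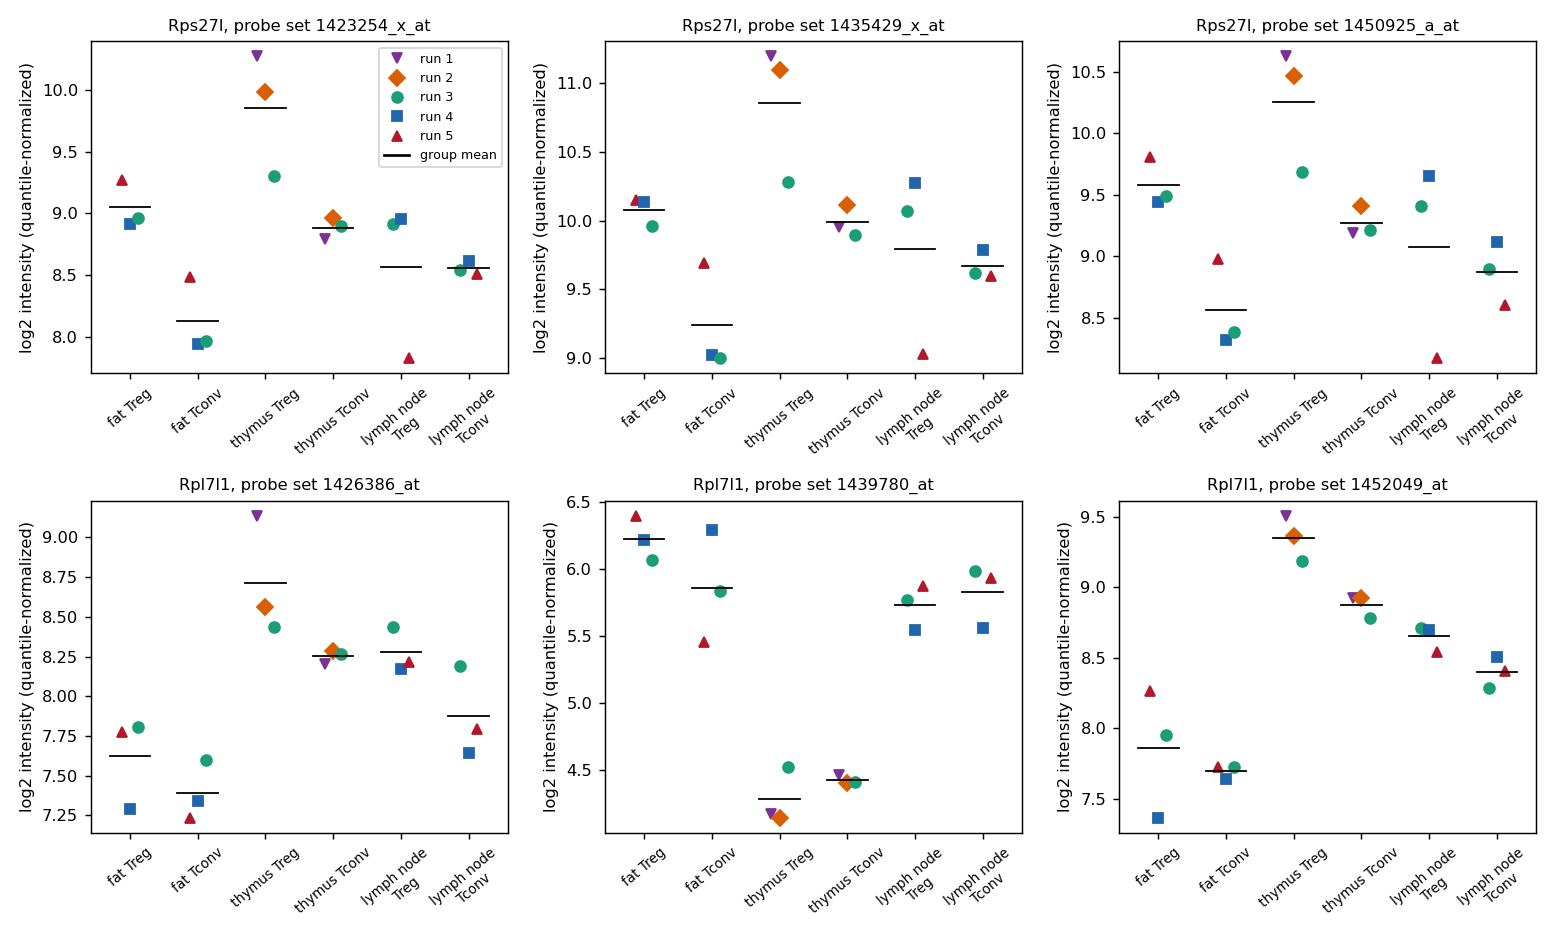
Log2 intensity after quantile normalization of the 3 probe sets of Rps27l and the 3 of Rpl7l1 on each array by group, 1 panel a set. The group mean is a line and the run is given as colour and shape. In each set of Rps27l every Treg array is above every Tconv array in fat and in thymus. In the set of Rpl7l1 used and a second one, the fat groups have the lowest means and thymus Treg the highest. In the last set of Rpl7l1, which is dim, the thymus arrays lie lowest and fat Treg has the highest mean.

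Fat Treg had the lowest group mean of all 6 groups for 29 of the 42 core members after quantile normalization, and lymph node Tconv the highest for 25. Against lymph node Treg, 43 of the 47 members were lower in fat Treg, with a median log2 difference of -0.31 where all genes had 0.01. The limma test called 8 of the 47 lower and 0 higher, against 18.2% of all genes called lower and 34.3% called in either direction, so the share of members called lower was near that of all genes. Of all genes 16.1% were called higher and 50.8% had a difference above 0. In 16 members every fat array lay below every lymph node array and in 1 above, against 25.8% and 23.7% of all genes. Against lymph node Tconv, 42 of 47 were lower in fat Tconv, with a median of -0.21 where all genes had -0.03. The limma test called 1 lower and 0 higher, against 11.6% of all genes called lower, 10.9% called higher and 22.5% in either direction. Of all genes 46.3% had a difference above 0. In 10 members every fat array lay below every lymph node array and in 1 above, against 19.4% and 16.8% of all genes. Within runs 3, 4 and 5 the median in Tconv was -0.31, 0.06 and -0.34. A lower intensity in a sorted pool can come from fewer cells that hold the transcript or from less of it per cell, and these cannot be told apart.

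The sign of these medians depends on the scale of the arrays. As deposited, where the fat arrays are brighter, the median of the members was 0.18 in Treg and 0.22 in Tconv, and that of all genes 0.37 and 0.33. Relative to all genes, the members' median was lower by -0.19 in Treg and -0.11 in Tconv as deposited or with each array centred on its median, and by -0.32 and -0.18 after quantile normalization. As deposited, Rpl8, Rps3 and Rps4x were called higher and Rpl7l1 lower in fat Treg, beside 54.7% of all genes in either direction. In fat Tconv Rpl8, Rpl13a, Rps3 and Rps25 were called higher and 0 members lower, beside 42.3%. Rpl8, of the large subunit, was at 0.77 in Treg (limma adjusted p = 0.00678) and 0.75 in Tconv (0.0114) as deposited, and at 0.29 and 0.30 after quantile normalization, where it was not called. Of all calls in Treg 83.2% were on the higher side as deposited, 46.9% after quantile normalization and 39.6% after centring. In Tconv these shares were 90.3%, 48.6% and 47.9%.

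**Figure D4:**
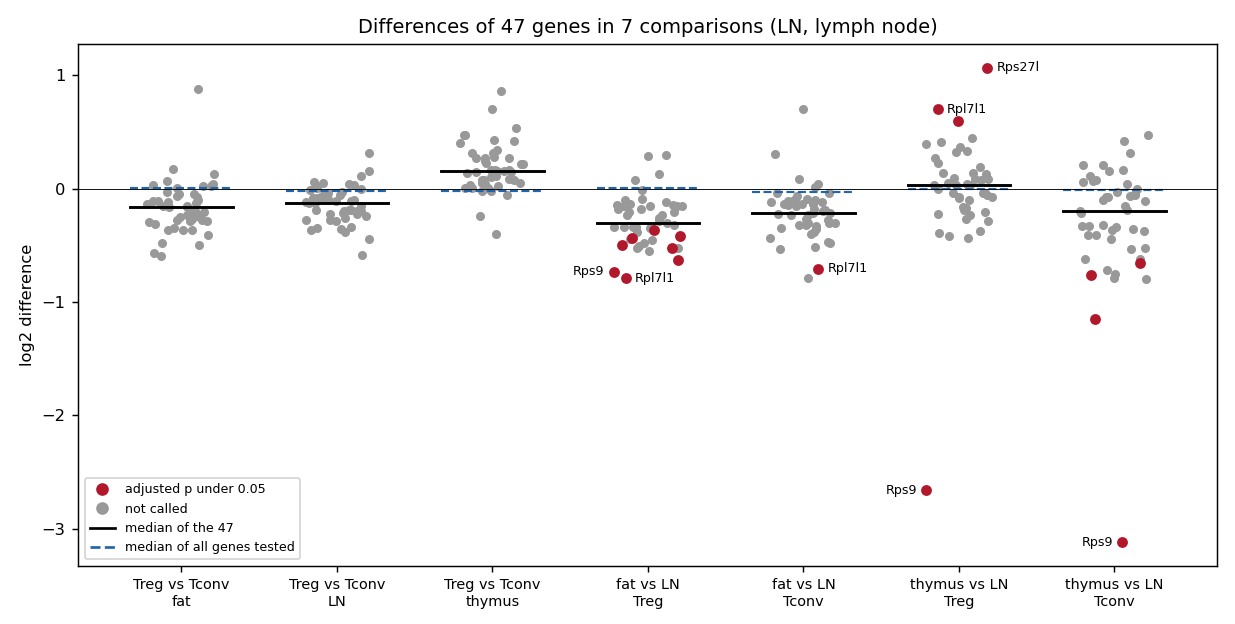
Log2 difference of each of the 47 tested genes in the 7 comparisons between groups, with called genes in red and the others in grey. Rps9, Rps27l and Rpl7l1 are named where they were called. Lines give the median of the members (solid) and of all 12821 genes (dashed). In fat against lymph node Treg 43 of 47 genes lie below 0, and Rps9 lies far below the rest in both thymus comparisons.

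Of the 8 genes called lower in fat Treg than in lymph node Treg, 7 were core members. Rps18, a small subunit protein that forms part of the bridge to the large subunit, had quantile-normalized intensities of 7531, 8100 and 8803 in fat Treg and 13378, 11830 and 10015 in lymph node Treg. The groups did not overlap, and the log2 difference was -0.52 ± 0.13 (SE, limma adjusted p = 0.00421). Rps7, also of the small subunit and able to bind the p53 regulator Mdm2, had 8876, 9099 and 9822 in fat Treg and 13011, 12776 and 11423 in lymph node Treg. Every fat array lay below every lymph node array, and the difference was -0.42 ± 0.12 (adjusted p = 0.0104 in limma). Both genes kept their call when any one array of the groups was left out, and lost it with each array centred on its median (limma adjusted p = 0.0607 for Rps18 and 0.0566 for Rps7). With centred arrays Rpl7l1, Rpl37 and Rps9 were the 3 members called, beside 35% of all genes. The second set of Rps7 gave -0.70, and 4 of 5 other sets of Rps18 were lower in fat, with a range of -0.72 to 0.06. As deposited, the difference was 0.022 for Rps18 and 0.067 for Rps7.

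Rps20, of the small subunit, had 6954, 6576 and 6762 in fat Treg and 10203, 9028 and 8348 in lymph node Treg, and the groups did not overlap. Its difference was -0.44 ± 0.14 (limma adjusted p = 0.0211), but its other 3 probe sets ran from -0.24 to 0.23 and only 1 of them was lower in fat. Rpl7a, a large subunit protein, had 6005, 6117 and 6867 in fat Treg and 8803, 7873 and 7802 in lymph node Treg, again without overlap. Its difference was -0.37 ± 0.14 (limma adjusted p = 0.0461). As deposited these differences were 0.099 for Rps20 and 0.14 for Rpl7a.

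Rpl35, a large subunit protein near the exit of the peptide tunnel, had 2746, 2795 and 2481 in fat Treg and 4782, 5091 and 2874 in lymph node Treg. The third lymph node array lay just above the fat arrays, and the difference was -0.63 ± 0.23 (limma adjusted p = 0.0425). Rpl37, of the large subunit, had 851, 1043 and 907 in fat Treg and 1457, 1598 and 975 in lymph node Treg. These groups overlapped through the third lymph node array, and the difference was -0.50 ± 0.17 (limma adjusted p = 0.0288). Rps9, of the small subunit, had 3653, 4297 and 3615 in fat Treg and 5960, 6184 and 7089 in lymph node Treg, with no overlap and a difference of -0.73 ± 0.25 (limma adjusted p = 0.033). The other 2 sets of Rps9 gave -0.35 and -0.0053.

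These 5 calls depended on single arrays. Rps20 lost its call without fat Treg replicate 2, fat Treg replicate 3 or lymph node Treg replicate 1, with a highest adjusted p of 0.0949. Rpl37 lost it without fat Treg replicates 1 or 3 or lymph node Treg replicates 1 or 2 (up to 0.149). Rpl35, Rpl7a and Rps9 each kept it in only 1 of the 6 fits that left out one array, with adjusted p up to 0.177, 0.15 and 0.0915. Rpl35 kept it only without lymph node Treg replicate 3, Rpl7a only without fat Treg replicate 3, and Rps9 only without fat Treg replicate 2. Without lymph node Treg replicate 3, the array on which core genes were low, 14 members were called, all lower, beside 33% of all genes in either direction. Without another array of the 2 groups 3 to 5 were called, 3 of them without lymph node Treg replicate 1, beside 27% to 29.6% of all genes. With the run as a block among the fat and lymph node arrays 18 members were called, all lower in fat Treg. Of all genes 43% were called in either direction. The 18 members included Rps29 (-0.55, limma adjusted p = 0.00642), Rpsa (-0.53, 0.0183), Rplp0 (-0.52, 0.0491) and Rps6 (-0.45, 0.0432). Within runs 3, 4 and 5 the members' median was -0.36, -0.38 and -0.07, with 3, 5 and 16 of 47 above 0.

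Rpl7l1 was lower in fat in both cell types. It encodes a paralogue of the large subunit protein Rpl7. It had 307, 165 and 248 in fat Treg and 419, 415 and 374 in lymph node Treg, and 212, 200 and 212 in fat Tconv and 313, 364 and 340 in lymph node Tconv. No fat array reached a lymph node array of its cell type. The difference was -0.79 ± 0.17 in Treg (limma adjusted p = 0.0017) and -0.71 ± 0.17 in Tconv (adjusted p = 0.0063 in limma). Leaving out any one array kept both calls. Unlike most members, it kept the direction as deposited, at -0.55 in Treg and -0.37 in Tconv, the second with an adjusted p of 0.108. Its probe sets did not all do the same: a second set gave -0.65 in Treg and -0.48 in Tconv, and the last gave 0.50 and 0.04. That last set was dim, with 56.1 to 104 in fat and 40.9 to 58.8 in lymph node as deposited, beside the dim cutoff of 65.9.

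Rplp0, Rplp2, Rpsa, Rpl11, Rpl38, Rpl13a and Rps19 were not called in any of the 9 contrasts without a block, on the scale used for each. Rplp0, the base of the stalk that recruits elongation factors, had 2735, 2619 and 3761 in fat Treg and 5690, 3281 and 4248 in lymph node Treg, quantile-normalized, groups that overlap. Its difference was -0.52 ± 0.28, and that of its stalk partner Rplp2 was -0.34 ± 0.24. Rpsa, a small subunit protein also known as a laminin receptor, had 3390, 3143 and 3586 in fat Treg and 5352, 4582 and 4668 in lymph node Treg, without overlap and with a difference of -0.53 ± 0.24 (limma adjusted p = 0.0938). Rpl11, which binds Mdm2 when ribosome assembly is disturbed, was at -0.34 ± 0.27, Rpl38 at -0.26 ± 0.27, Rpl13a at -0.16 ± 0.14 and Rps19, mutated in Diamond-Blackfan anaemia in humans, at -0.14 ± 0.17. Over the core members the differences ran from -0.73 to 0.08 in the small subunit and from -0.63 to 0.29 in the large.

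Several lists of other cell types and cell states held genes called between fat and lymph node. The counts stand beside 16.1% of all genes called higher and 18.2% lower in Treg, and 10.9% and 11.6% in Tconv. Sums are over every listed gene with a probe set, also those that did not pass the dim filter. These were 17 macrophage and monocyte, 11 stromal and endothelial and 6 adipocyte genes. All 12 immediate early and stress genes were called higher in fat Treg than in lymph node Treg, with summed quantile-normalized intensities of 49958 to 60250 in fat Treg and 6202 to 11170 in lymph node Treg. In Tconv 11 of 12 were called higher, with sums of 38492 to 40555 in fat and 5385 to 9462 in lymph node. Macrophage and monocyte genes were called higher for 12 of 15 tested in Treg (sums of 1711 to 6154 in fat and 935 to 1261 in lymph node) and for 6 of 15 in Tconv (1205 to 3700 and 897 to 1125). Stromal and endothelial genes were called higher for 7 of 7 tested in both, with sums of 2801 to 7792 in fat Treg, 491 to 578 in lymph node Treg, 2647 to 5783 in fat Tconv and 521 to 603 in lymph node Tconv. Adipocyte genes were called higher for 2 of 3 tested in both, with sums of 2393 to 4889 in fat Treg, 203 to 213 in lymph node Treg, 1876 to 4622 in fat Tconv and 194 to 232 in lymph node Tconv. Of 6 NK and cytotoxic genes 3 were called higher and 2 lower (Prf1 and Klrd1) in fat Tconv, and 2 higher and 0 lower in fat Treg. The 7 with a probe set summed to 12747 to 14107 in fat Tconv, against 1358 to 1448 in lymph node Tconv. In Treg they summed to 2304 to 3470 in fat, against 1164 to 1670 in lymph node. Naive T cell genes were called lower for 6 of 8 and higher for 1 (Il7r, 0.77) in fat Treg, and lower for 5 of 8 and higher for 1 (Klf2, 0.92) in fat Tconv. Of 6 B cell genes 3 were called lower in fat Treg and 1, near the share of all genes, in fat Tconv. Of 8 immature thymocyte genes 3 were called lower and 1 higher in fat Treg, and 3 lower in fat Tconv. Cell division genes were called lower for 2 of 12 in fat Treg, a share near that of all genes, and higher for 3 of 12 in fat Tconv. The part of these in the ribosomal protein values was not tested.

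Thymus was set against lymph node as the other tissue. In Treg the members lay on both sides, with 25 higher and 22 lower in thymus and a median of 0.03 where all genes had -0.00. The limma test called 3 of the 47 higher and 1 lower, against 6.12% and 5.71% of all genes (11.8% in either direction). Of all genes 49.8% were above 0. In 4 members every thymus array lay above every lymph node array and in 2 below, against 11.6% and 12% of all genes. In Tconv 34 of 47 were lower in thymus, with a median of -0.20 where all genes had -0.01, and 4 were called lower and 0 higher, against 4.5% and 4.38% of all genes (8.88% in either direction). Of all genes 48.2% were above 0. In 18 members every thymus array lay below every lymph node array and in 4 above, against 13.2% and 13.9% of all genes. The median in Treg was -0.08 without thymus Treg replicate 1 and -0.13 without lymph node Treg replicate 3. Only run 3 held arrays of both tissues, and within it the median was -0.19 in Treg and -0.33 in Tconv.

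The largest value of any member was that of Rps9 in thymus. Quantile-normalized, Rps9 had 1236, 1221 and 685 in thymus Treg and 5960, 6184 and 7089 in lymph node Treg. It had 970, 1042 and 557 in thymus Tconv and 5772, 7057 and 8993 in lymph node Tconv. The thymus arrays lay far below all fat and lymph node arrays, with a log2 difference of -2.66 ± 0.25 in Treg (limma adjusted p = 1.92e-06) and -3.12 ± 0.25 in Tconv (adjusted p = 3.87e-07 in limma). Both calls held without any one array, and within run 3 the differences were -3.12 and -3.37.

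This value belonged to 1 of the 3 probe sets of Rps9. The set used is an _x_at set, a type whose probes can match other transcripts. In the _s_at set of the gene the intensities were 3833, 2744 and 3538 in thymus Treg and 2662, 2522 and 841 in lymph node Treg, and 3240, 3079 and 3254 in thymus Tconv and 3028, 2711 and 1836 in lymph node Tconv. On that set thymus was on the higher side, by 0.91 in Treg and 0.37 in Tconv. In the remaining set thymus was on the lower side, by -0.51 and -0.44. The sets therefore disagree on the direction for the gene. Strain differs between these mice, and its part in the difference of one probe set was not tested. Of the 50 members 14 were read by _x_at sets, among them Rps18, Rps20, Rpl35, Rpl37, Rps29, Rpl37a and Rps27l.

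**Figure D5:**
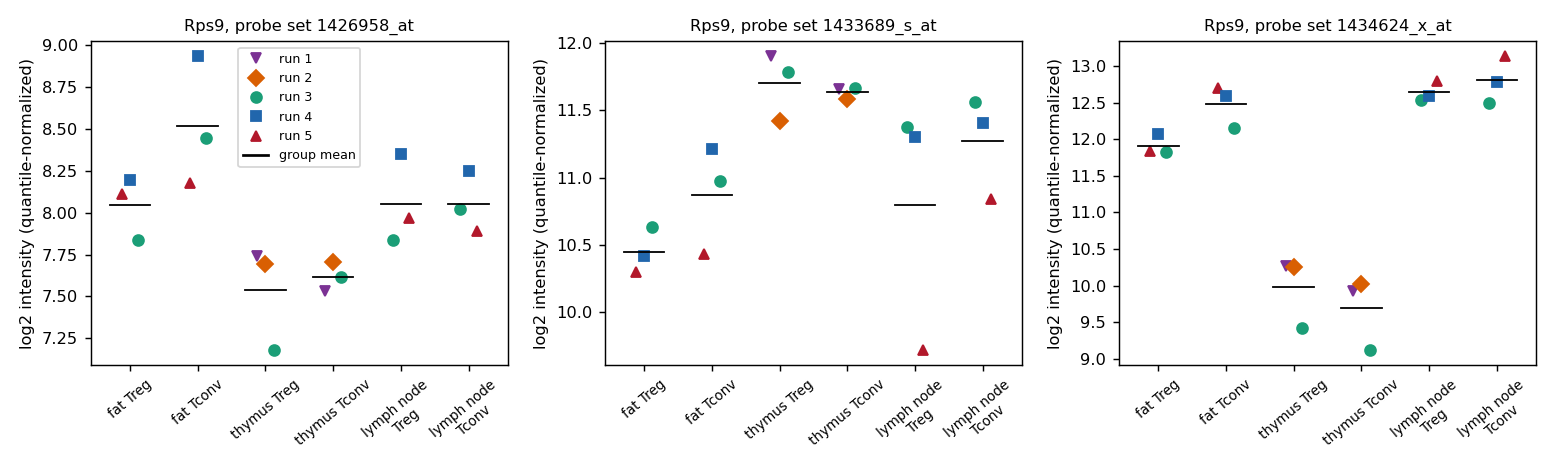
Log2 intensity after quantile normalization of the 3 probe sets of Rps9 on each array by group, 1 panel a set, with the group mean as a line and the run as colour and shape. In the _x_at set the 6 thymus arrays lie at intensities of 557 to 1236, below every fat and lymph node array, while in the _s_at set the thymus groups have the highest means.

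In Tconv 3 other core members were called lower in thymus. Rpl37 had 696, 744 and 736 in thymus Tconv and 1579, 1743 and 1507 in lymph node Tconv. The groups lay far apart, with a difference of -1.15 ± 0.17 (limma adjusted p = 0.000179), and the call held without any one array. Rpl37 had 1 single-symbol probe set, also an _x_at set, so no other set could check this value. Rpl37a, of the large subunit, had 5521, 4850 and 4113 in thymus Tconv and 7732, 7396 and 7576 in lymph node Tconv. They did not overlap, and the difference was -0.66 ± 0.16 (limma adjusted p = 0.015; 0.0835 without thymus Tconv replicate 3). Its other 2 sets gave -0.38 and 0.41. Rps6 had 369, 305 and 486 in thymus Tconv and 750, 683 and 519 in lymph node Tconv. The groups touched closely without overlap, and the difference was -0.76 ± 0.21 (limma adjusted p = 0.0308), while its other set gave 0.11, in the opposite direction. Rps6 lost its call without thymus Tconv replicates 1 or 2 or lymph node Tconv replicates 1 or 2, with adjusted p up to 0.151. With the run as a random block 8 members were called, all lower in thymus Tconv, beside 10.3% of all genes in either direction. Among the 8 were Rpl38 (-0.95, limma adjusted p = 0.0136) and Rplp2 (-0.67, 0.0492).

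In Treg the 3 members called higher in thymus were not core ribosomal proteins. Rps27l had 2342, 2189 and 1244 in thymus Treg and 1074, 1239 and 522 in lymph node Treg. The lowest thymus array lay just above the highest lymph node array, and the difference was 1.07 ± 0.28 (limma adjusted p = 0.0181). Without lymph node Treg replicate 3 it was 0.69 with an adjusted p of 0.102, and it also lost its call without thymus Treg replicates 1 or 2. Rpl7l1 had 728, 659 and 583 in thymus Treg and 419, 415 and 374 in lymph node Treg, apart on every array. Its difference was 0.70 ± 0.17 (limma adjusted p = 0.0114, and 0.0616 without thymus Treg replicate 1), but the set that went the other way in fat gave -1.45. That set was below the dim cutoff of 65.9 on all these arrays, with 15.9 to 20.8 in thymus Treg and 40.9 to 55.4 in lymph node Treg as deposited. Rps19bp1 had 369, 250 and 271 in thymus Treg and 223, 188 and 174 in lymph node Treg, without overlap and with a difference of 0.59 ± 0.15 (limma adjusted p = 0.0149). It lost its call without thymus Treg replicate 1 (adjusted p = 0.0969), lymph node Treg replicate 2 or lymph node Treg replicate 3.

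Cell division genes and other lists also held genes called between thymus and lymph node. The counts stand beside 6.12% of all genes called higher and 5.71% lower in Treg, and 4.38% and 4.5% in Tconv. Cell division genes were called higher for 11 of 12 tested in both comparisons, with sums of 11327 to 22539 in thymus Treg, 4296 to 5658 in lymph node Treg, 13324 to 17675 in thymus Tconv and 3984 to 5231 in lymph node Tconv. Immature thymocyte genes were called higher for 5 of 8 in Treg and 4 of 8 in Tconv. The 10 with a probe set summed to 3809 to 7482 in thymus Treg and 2039 to 2164 in lymph node Treg. In Tconv they summed to 4575 to 7076 in thymus and 3062 to 3292 in lymph node. Of 6 B cell genes 2 were called lower in thymus Treg and 3 in thymus Tconv. Of 6 NK and cytotoxic genes 1 was called higher in thymus Treg, and 1 higher and 4 lower in thymus Tconv. Naive T cell genes were called higher for 1 and lower for 1 of 8 in Treg and lower for 2 in Tconv. Immediate early and stress genes were called lower for 1 of 12 in both cell types, near the share of all genes. Such few calls are not read as a shift of either list. Their part in the ribosomal protein values was not tested.

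The difference of the Treg effect between tissues was fitted as an interaction. For fat minus lymph node 34 of 47 members were below 0, with a median of -0.09 where all genes had 0.03, and limma called 0 (5.09% of all genes, 2.35% higher and 2.75% lower, with 54.3% above 0), also 0 at an unadjusted p under 0.05. For thymus minus lymph node 44 of 47 were above 0, where 51% of all genes were, with a median of 0.28 against 0.01. Limma called 0 of them (0.335% of all genes, 0.164% higher and 0.172% lower), and 2 were higher at an unadjusted p under 0.05. At that unadjusted threshold 14.4% of all genes passed for fat minus lymph node and 5.51% for thymus minus lymph node. The median was 0.12 without thymus Treg replicate 1 and 0.14 without lymph node Treg replicate 3. For fat minus lymph node it was 0.01 without fat Tconv replicate 2. The interactions use the same lymph node arrays and are not independent of each other.

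Other genes of ribosome production and translation were followed in the same fits. Their counts stand beside 16.1% of all genes called higher and 18.2% called lower in fat Treg against lymph node Treg, 6.12% and 5.71% in thymus Treg against lymph node Treg, and 4.38% and 4.5% in thymus Tconv against lymph node Tconv. Of 76 mitochondrial ribosomal protein genes, which serve a separate ribosome, 2 were called higher and 20 lower in fat Treg than in lymph node Treg, with a median of -0.35. The largest differences were Mrpl58 at -1.19 and Mrps7 at 1.00. In fat Tconv against lymph node Tconv 3 of the 76 were called higher and 8 lower, with a median of -0.27. All genes there had 10.9% called higher and 11.6% lower. For the mitochondrial ribosomal genes thymus went the other way in Treg. In thymus Treg against lymph node Treg 15 were called higher and 1 lower, with a median of 0.45 and Mrpl42 at 1.16, while in Tconv 0 were called higher and 1 lower. Of 40 ribosome biogenesis genes 2 were called higher and 7 lower in fat Treg than in lymph node Treg, with a median of -0.20 and a share of lower calls near that of all genes. Wdr12, a factor of large subunit assembly, was at -1.09 there and at -1.06 in fat Treg against fat Tconv, where it was the 1 gene of the list called, beside 5.19% of all genes called lower.

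Elongation factors and other TOP transcripts, with 17 genes tested, had 3 called lower and 0 higher in fat Treg against lymph node Treg: Eif4b at -0.67, Nap1l1 at -0.51 and Eif3e at -0.50. That share is also near that of all genes. Their medians were -0.22 there and 0.17 in thymus Treg against thymus Tconv, where Btf3 (0.63) and Nap1l1 (0.59) were called higher, beside 3.21% of all genes. Of 24 initiation factors 2 were called lower in fat Treg against lymph node Treg, Eif4e, which binds the cap, at -0.83 and Eif3m at -0.74. Of 25 genes of the mTORC1 pathway 6 were called lower and 1 higher there. Rragd, a GTPase that recruits mTORC1 to lysosomes, was at -2.71, Sesn3, an inhibitor of the pathway, at -1.55, and Ddit4, another inhibitor, at -0.82. Rheb, the GTPase that activates mTORC1, was at 0.89 there and at 0.71 in fat Treg against fat Tconv. In lymph node and thymus Rragd was called higher in Treg than in Tconv, by 2.34 and 1.64. Of 19 genes of RNA polymerase I and the Myc network 4 were called higher and 5 lower in fat Treg against lymph node Treg. Among them were the Max partners Mxi1 at 2.03 and Mxd1 at 1.87 and the RNA polymerase I subunits Polr1c at 1.17 and Polr1e at -0.97. Fat Tconv against lymph node Tconv had 1 mTORC1 gene called higher and 3 lower, and 3 Myc network genes higher and 2 lower. All genes there had 10.9% called higher and 11.6% lower. Lower calls included Rragd (-1.12), Sesn3 (-1.32), Ddit4 (-0.61) and, as the only initiation factor called, Eif4e (-0.77). Mxi1 (1.56), Mxd1 (1.29) and Polr1c (1.06) were called higher, while Rheb, Eif3m and Polr1e were not called.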

How the data were processed

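Each of the 18 arrays has a deposited linear intensity per probe set, which the authors obtained with RMA (GenePattern), per the submitters' design text. The method removes background, equalises array distributions and combines probes. The sources used here do not say which arrays entered the same normalization. RNA was extracted with Trizol and amplified in 2 rounds, per the labels' protocols. Of 45101 probe sets 64 were controls, 34945 had 1 gene symbol in the platform annotation, 932 several and 9160 none. Genes entered the test where a group mean exceeded log2 6.04 (intensity 65.9), the median of all values.

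Log2 values computed from the deposited intensities were fitted with limma 3.58.1 in R 4.3.3, with 6 group means over 18 arrays (12 residual degrees of freedom) and 9 contrasts, after a check on simulated data. A gene is said to be called higher or lower where its adjusted p (Benjamini-Hochberg over 12821 genes) was under 0.05. With no counts, precision rests on 3 arrays a group. Another 110 probe sets name a ribosomal protein gene together with another gene and were not used for members. Members, lists and alternatives were chosen with earlier results of these data known. Named members are the 5 largest called in each direction per contrast and 16 of prior interest, of which 12 were measured. Of other genes, up to 3 called in each direction per list could be named. Genes shown for another reason were chosen after their values were seen. Same-numbered Treg and Tconv arrays of a tissue deviated together (correlation 0.351 to 0.678 over all genes), so the numbers were taken as pairs. The alternatives were the scale, the dim filter, the mean of all probe sets, sets ending in _x_at left out, fewer groups in the fit, the pair or the run as a block, and each array left out. Promoters came from RefSeq.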

Additional observations from a re-analysis of the deposited data

How the results depend on the processing

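The counts of called ribosomal protein genes moved with the processing, as did the share of all genes called, given in parentheses, while the medians kept their sign under the alternatives other than left-out arrays, the deposited scale for fat against lymph node, and the run as a random block for thymus against lymph node Treg. Treg against Tconv in fat gave 0 called, but 2 with the mean of all probe sets (13.3% of all genes) or with only the groups compared (10%), 1 without sets ending in _x_at (11.6%), 5 with the replicate block (20.7%) and 0 to 1 with one array left out (8.61% to 12.4%). In thymus it gave 0, but 3 with the replicate block (11.9%) and 0 to 2 with one array left out (3.41% to 7.61%). The replicate block called 0 in lymph node (8.02%) and in both interactions (11.3% and 1.05%). Fat against lymph node Treg gave 8 called, but 4 as deposited (54.7%) or without _x_at sets (34.7%), 3 with centred arrays (35%), 18 with the run block (43%) and 3 to 14 with one array left out (27% to 33%), with a median of 0.18 as deposited. In Tconv it gave 1, but 4 as deposited (42.3%), 2 without the dim filter (18.1%) or without _x_at sets (22.9%), 5 with the mean of all probe sets (25.7%), 3 with the run block (30.8%), 0 without paralogues and Rps19bp1 (added after seeing the data) and 1 to 4 with one array left out (16.9% to 22.5%), with a median of 0.22 as deposited. Thymus against lymph node Treg gave 4, but 2 with only the groups compared (5.87%), 1 without paralogues and Rps19bp1, and 1 to 5 with one array left out (7.4% to 14.3%). In Tconv it gave 4, but 2 with centred arrays (7.89%) or without _x_at sets (8.99%), 8 with only the groups compared (9.97%) and 8 with the run as a random block (10.3%). The sign turned for Rpl7a (0.14), Rps18 (0.022), Rps20 (0.099) and Rps7 (0.067) in fat Treg as deposited, for Rpl7l1 in thymus Treg with the mean of all probe sets (-0.10), and for Rps9 in thymus without _x_at sets (0.91 in Treg, 0.37 in Tconv). Beyond the fewer arrays or other probe sets these settings hold, the cause was not tested. Other single-symbol sets of 24 members numbered 56, and 39 to 47 of them had the sign of the set used, by comparison.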

Other observations

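The 110 probe sets that name a ribosomal protein gene together with another gene cannot be given to 1 gene. Their median log2 difference between Treg and Tconv was -0.17 in fat, -0.20 in lymph node and 0.17 in thymus, on values as deposited. After quantile normalization it was -0.21 in fat Treg and -0.17 in fat Tconv against lymph node, and -0.27 in thymus Tconv against lymph node Tconv. In thymus Treg against lymph node Treg it was -0.03, where the members had 0.03. These sets share arrays, and in part transcripts, with the members, so they are no independent support.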
